A study of Mus musculus with 12 samples.

Results

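The comparison described here set macrophages that carried wild-type IRX3 (IRX3_WT) against macrophages that carried GFP, across all genes that could be tested and with the weight on gene programmes other than the classic cytokines. It used 6 of the 12 RNA-seq libraries of the study, 3 for each construct, and 13369 of the 55401 genes in the deposited table, those that reached 10 normalized counts in 3 or more of the 12 libraries. The cells were bone-marrow-derived macrophages (BMDMs) of Irx3-/- mice on the C57BL/6J background, grown with M-CSF (macrophage colony-stimulating factor, 20 nM) for 7 days. They received their construct by adeno-associated virus (AAV) and were then exposed to lipopolysaccharide (LPS, 100 ng/ml), a cell wall component that signals through Toll-like receptor 4, for 4 h. Both groups lack the endogenous gene and both were stimulated, so the comparison adds IRX3 to a null background and holds no unstimulated cells. The other 6 libraries carried IRX3_S361A or IRX3_S389A, in which a serine is replaced by alanine, and entered the statistical fit only to estimate the spread between libraries. Whether the libraries of a group came from separate animals, cultures or days is not given, so the p-values measure only the spread between these libraries.

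IRX3 belongs to the Iroquois group of homeobox transcription factors and is best known for its part in embryonic patterning and, in adults, for its link to the control of body weight and fat tissue. LPS drives macrophages into a programme in which NF-kappaB, AP-1 and interferon-regulated factors raise inflammatory genes, while growth, lipid synthesis and resting-state receptors are remodelled. BMDMs grown in M-CSF still divide, so their RNA also holds the transcripts of DNA replication and mitosis.

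Irx3 was at 0 in every GFP library. The IRX3_WT libraries held 165, 170.3 and 196 normalized counts, a mean of 177 ± 16.3 (SD, n = 3) and at least 64.7-fold above the floor of 3 reads per GFP library. That floor equals 2.67 to 2.78 normalized counts in the GFP libraries and covers counting error only. Whether the construct carries the mouse coding sequence is not given, so the count measures only those of its reads that align to the mouse gene.

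Recovered reads ran from 17149058 to 20108002 in the 6 libraries. Macrophage identity genes were abundant in both groups: the 14 of the list summed to 401566 to 413703 normalized counts with GFP and 427115 to 435635 with IRX3_WT, and none was at 0. Marker sums of other cell types were far lower. The 12 neutrophil markers summed to 1433 to 1498 with GFP and 2240 to 2535 with IRX3_WT, mostly Csf3r, with Mpo, Elane, Retnlg and Ly6g at 0. The 12 erythroid, megakaryocyte and mast cell markers summed to 2547 to 3050 and 4099 to 4308, nearly all of it Pf4, with Hbb-bs, Gata1, Mcpt4 and Fcer1a among those at 0. The 11 stromal and endothelial markers summed to 117 to 168 and 285 to 300, mostly Pdgfrb, and the 10 lymphocyte markers, only Lck and Klrb1c above the filter on low values, to 37.4 to 47.0 and 60.1 to 74.0, with Cd3g, Trbc1 and Ncr1 at 0. The 10 dendritic cell markers (183 to 225 and 251 to 256) were also higher with IRX3_WT, while the 8 osteoclast markers (3170 to 3286 and 2918 to 3027) were lower. The part of these sums in the results below was not tested. In bulk RNA, fewer cells of a type and less RNA per cell cannot be told apart.

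In all, 5288 genes (39.6%) differed between the constructs at a Benjamini-Hochberg adjusted p under 0.05 (limma on log2(value + 1)), with 2805 (21.0%) higher and 2483 (18.6%) lower with IRX3_WT. Most differences were small, but the falls had the longer tail. At least 2-fold were 241 rises and 351 falls, at least 4-fold 11 rises and 56 falls, and at least 8-fold 2 rises and 10 falls. The direction went with the level of the gene. Of the 3342 genes in the highest quartile of level 1598 were higher and 426 lower, whereas in the second quartile from below 323 were higher and 935 lower; with equal library totals the highest quartile turned to 803 higher and 1413 lower. The groups did not overlap in 6470 genes (48.4%). The deposited values rest on 1 size factor per library, and scaling the libraries to equal totals instead moves the median of all genes from -0.006 to -0.18 on the log2 scale. With equal totals 1395 genes (10.4%) were higher and 5519 (41.3%) lower, 51.7% in all, so each list below is also given on that scale.

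**Figure D1:**
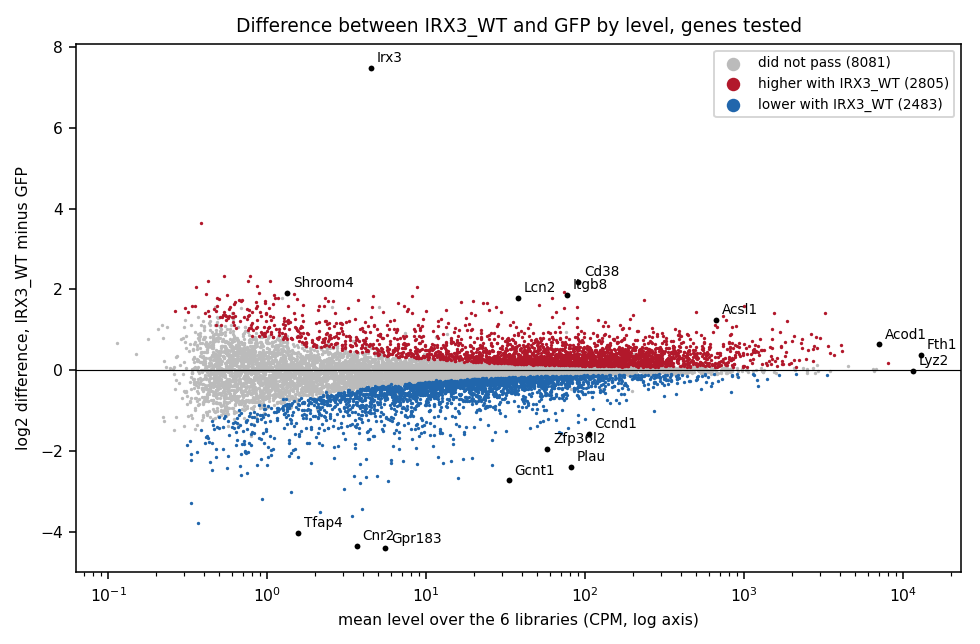
Log2 difference between IRX3_WT and GFP (vertical axis) against the mean level over the 6 libraries (CPM, reads of the gene scaled to the library total, horizontal log axis) for the 13369 genes tested. Red points were higher and blue points lower with IRX3_WT, grey points did not pass, and the falls of Gpr183, Cnr2 and Tfap4 reach beyond -4 while Irx3 alone lies above 7.

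The largest rises and falls were ranked among called genes with a mean of at least 1 CPM and groups that do not overlap. Symbols of classic cytokines (Il, Ccl, Cxcl, Ifn or Tnf before a digit or alone) were left out, as were Gm and Rik symbols. Among the genes kept, the largest rise after Irx3 was that of Cd38. The genes left out include a larger rise than that of Cd38. Cd38, the ectoenzyme that consumes NAD, was at 638, 639 and 589 normalized counts in the GFP libraries and at 2943, 2570.0 and 3032 in the IRX3_WT libraries. Itgb8, the integrin subunit that helps activate latent transforming growth factor beta, was at 624, 627 and 643 and 2359, 2238 and 2302. Fscn1, which bundles actin in cell protrusions, was at 502, 559.9 and 521 and 1724, 1927 and 1818. In each of these genes the lowest IRX3_WT library lay more than 3-fold above the highest GFP library. The rises were 2.19 (SE 0.06), 1.86 (SE 0.05) and 1.79 (SE 0.07) on the log2 scale, with limma adjusted p of 1.64e-22, 4.13e-26 and 3e-22.

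A pair of secreted iron and haem carriers stood among the 20 largest rises. Lcn2, which binds bacterial siderophores, was at 343, 362 and 256 with GFP and 1005, 1026 and 1312 with IRX3_WT, and Hp, which binds free haemoglobin, at 19.5, 21.2 and 22.3 and 73.8, 70.6 and 67.1. Secreted signals were the activin subunit Inhba (log2 difference 1.66), the interleukin 6 family member Lif (1.72), the matrix glycoprotein Thbs1 (1.67) and the neuropeptide precursor Vgf (1.73). Cst7 (1.84) encodes an inhibitor of lysosomal cysteine proteases, and Gfi1 (1.69) a transcriptional repressor of myeloid cells. The list also held genes better known from epithelia and neurons: the cytoskeletal Shroom4 (1.91), the cadherin Cdh6 (1.86), the glutamate transporter Slc1a2 (1.80), the calcium channel subunit Cacnb3 (1.73), the potassium channel Kcna2 (1.62), and Ntng2 (1.65) and Tmem132e (1.78). Several of these are rare transcripts: Shroom4 was at 7.42, 12.9 and 10.7 with GFP and 48.2, 37.4 and 37.5 with IRX3_WT, and Slc1a2 at 13.9, 9.21 and 6.23 and 36.4, 34.3 and 34.1. Ifitm7 rose by 1.64 and had the largest adjusted p of the 20 (limma, 0.000665).

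Among the 20 largest falls 4 were receptors for lipids that guide cell position. Gpr183, the receptor for oxysterols, was at 156, 185 and 210.2 with GFP and 7.88, 3.12 and 17.1 with IRX3_WT. Cnr2, the cannabinoid receptor of immune cells, was at 143, 100.4 and 123 and 2.95, 5.19 and 7.97. Both reached the floor of 3 reads in 1 IRX3_WT library, so the sizes of their falls, -4.40 (SE 0.39) and -4.34 (SE 0.39) on the log2 scale, are less certain than their direction. Lpar5, for lysophosphatidic acid, was at 59.4, 71.8 and 79.3 and 7.88, 3.12 and 5.69, and S1pr1, for sphingosine 1-phosphate, at 234, 292 and 248 and 61.0, 46.7 and 46.7. Lpar5 also stood at the floor in IRX3_WT replicate 2. All 4 were chosen with the condition that the groups do not overlap.

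The other large falls were spread over transcription, the cell cycle, signalling and glycan processing. Tfap4, a factor induced by Myc, was at 61.3, 37.8 and 57.9 with GFP and 1.97, 1.04 and 4.55 with IRX3_WT, where 2 of 3 libraries lay under the floor. E2f2 (-2.78), Cdca7 (-3.59), Dtl (-2.28) and the checkpoint kinase gene Wee1 (-2.61) belong to cell cycle progression. The guanine nucleotide exchange factor Rasgrp3 (-3.01), the ubiquitin ligase Rnf144b (-2.74), the sorting nexins Snx30 (-2.65) and Snx24 (-2.63), and Rab3il1 (-2.34) and Dennd2c (-2.31), which act on Rab GTPases, serve signalling and membrane traffic. Gcnt1, which builds branched O-glycans, went from 1002, 1006 and 1035 to 155, 145 and 162, and Engase (-2.92) trims free N-glycans. Every one of the 20 rises and 20 falls passed in each of the fits that left out 1 library, the largest limma adjusted p among them being 0.0144, for Ifitm7.

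**Figure D2:**
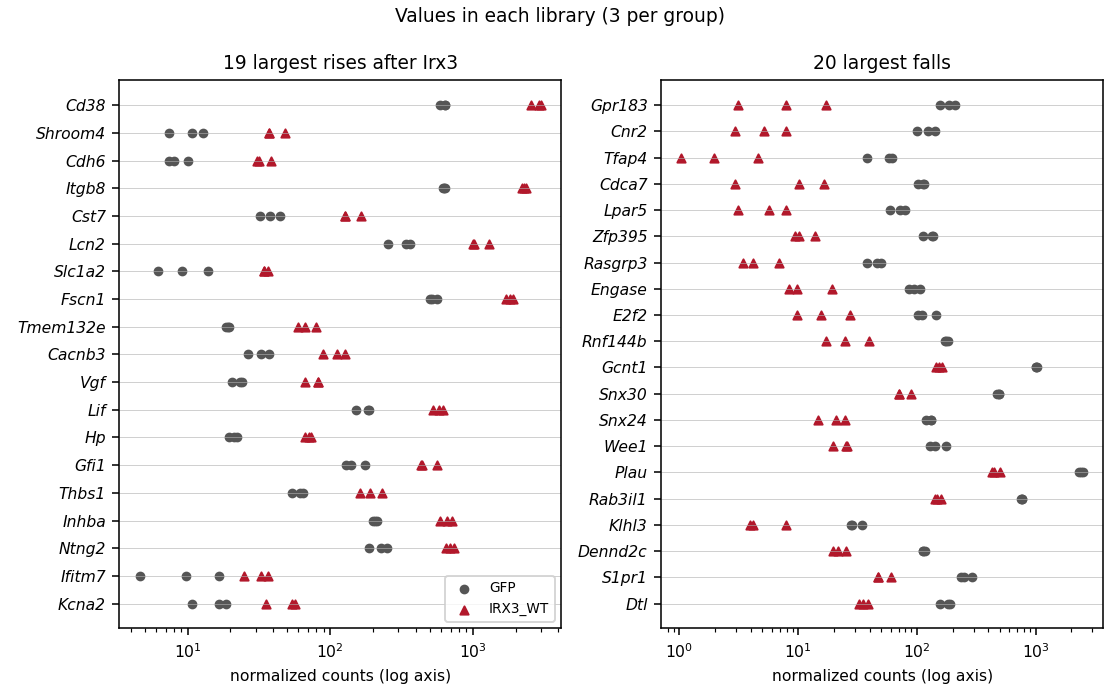
Normalized counts (horizontal log axis) of the 19 largest rises after Irx3 (left) and the 20 largest falls (right) in each GFP library (grey circles) and each IRX3_WT library (red triangles). The genes were chosen to have groups that do not overlap, and Gpr183, Cnr2, Tfap4, Cdca7, Lpar5, Zfp395, Rasgrp3, Engase, E2f2 and Klhl3 have an IRX3_WT library under 10 counts.

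Gene lists by function separated into those with mostly rises, those with mostly falls and those in which relatives moved apart. The background for each share on the deposited scale is the 21.0% of all genes higher and 18.6% lower. For the counts with equal totals it is 10.4% higher and 41.3% lower. DNA replication lay at one end, with 1 of 42 tested members higher and 35 lower, and the antioxidant genes under the transcription factor NRF2 at the other, with 16 of 21 tested members higher and 0 lower. The shares were not adjusted for level. In the highest quartile of level 47.8% of genes were higher and 12.7% lower, and the part of level in the list counts was not tested.

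**Figure D3:**
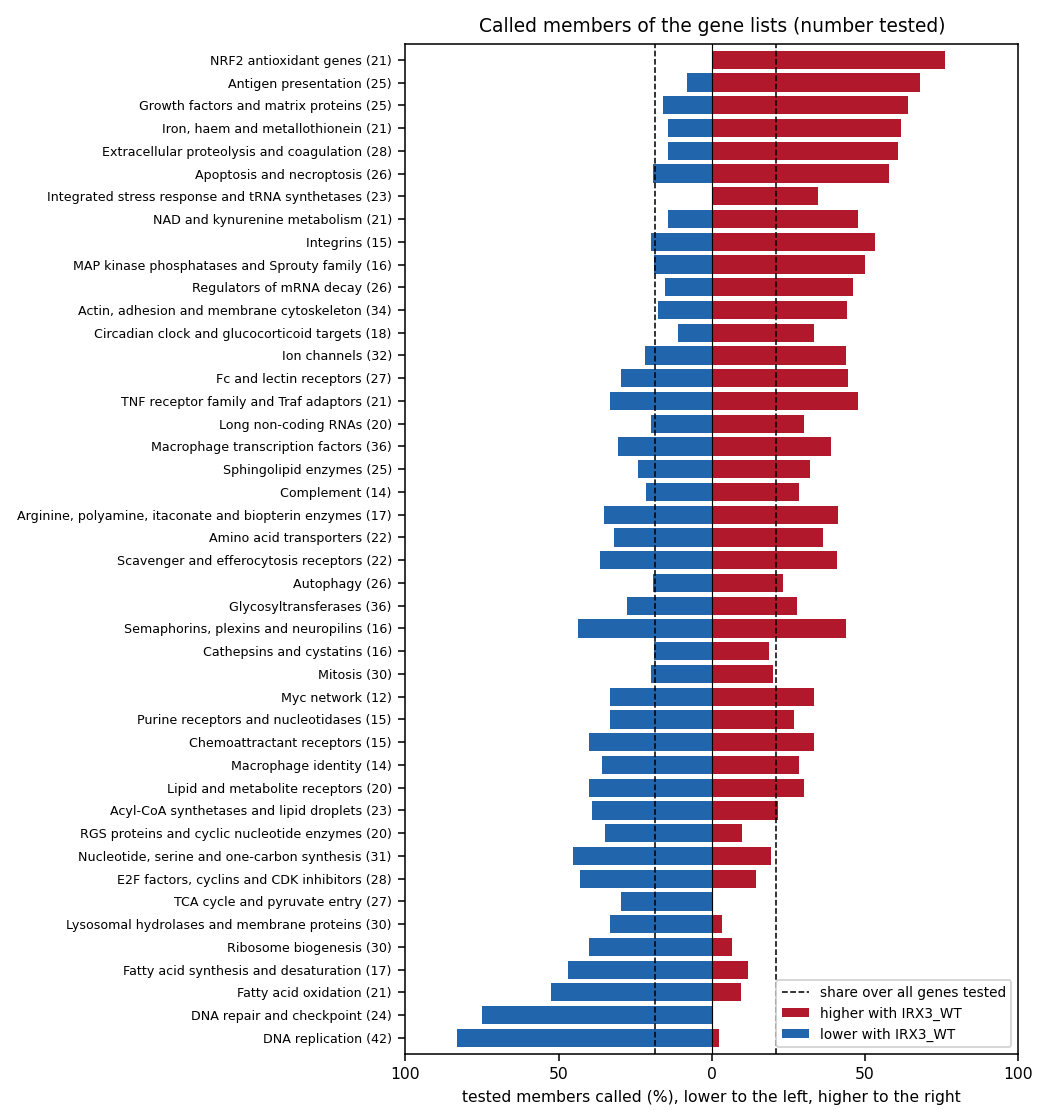
Share of the tested members of the gene lists called higher (red, to the right) or lower (blue, to the left) with IRX3_WT, with the number tested in brackets. Dashed lines mark the shares over all genes tested, 21.0% higher and 18.6% lower, and the lists run from NRF2 antioxidant genes at the top to DNA replication at the bottom.

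Among the lists, the genes that copy DNA held the highest share of falls. Of 42 tested genes of DNA replication 35 fell and 1 rose, with a median log2 difference of -0.47 against -0.006 over all genes (40 fell and 0 rose with equal totals). Cdc6, which loads the replicative helicase at origins, was at 183, 185 and 207 with GFP and 63.0, 50.9 and 36.4 with IRX3_WT, and Mcm2, a subunit of that helicase, at 1419.9, 1385 and 1405 and 857, 889.9 and 877. Uhrf1, which carries DNA methylation through replication, was at 1159, 1210.0 and 1192 and 567, 582 and 568. The log2 differences were -1.95 (SE 0.19), -0.68 (SE 0.05) and -1.05 (SE 0.06). The groups lay apart in all 3 genes, which were named from called genes, and in 48.4% of all genes tested. All other helicase subunits from Mcm3 to Mcm7 fell too, by smaller amounts: Mcm3 (-0.51), Mcm4 (-0.37), Mcm5 (-0.35), Mcm6 (-0.38) and Mcm7 (-0.35). So did the polymerase subunits Pole2 (-1.02) and Pold1 (-0.91) and the large subunit of the clamp loader, Rfc1 (-0.77). Pcna, the sliding clamp itself, was the exception, at 5593, 5570.2 and 5900.3 and 6336, 6228 and 5779. Its groups overlapped, and its rise of 0.10 became -0.07 with equal totals. It did not pass there, with edgeR or DESeq2 on recovered reads, or without GFP replicate 1 or 2 or IRX3_WT replicate 1 or 2, and without it 0 genes of the list rose.

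DNA repair and checkpoint genes also fell, 18 of 24 tested with 0 higher and a median of -0.66 (23 of 24 with equal totals). Wee1, the kinase that holds cells before mitosis, was at 142, 129.8 and 175 with GFP and 19.7, 26.0 and 25.0 with IRX3_WT. The mismatch repair gene Msh6 (333 ± 10.5 to 115 ± 12.8, SD, n = 3) fell by more than 2-fold, as did the nuclease gene Exo1 of the same pathway (log2 difference -1.89). The checkpoint kinases Chek2 (-1.08) and Chek1 (-0.97) and the breast cancer genes Brca1 (-0.79) and Brca2 (-0.72) fell. The damage-sensing kinases Atm (-0.08) and Atr (-0.06) did not pass on the deposited scale and were lower with equal totals.

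Mitosis genes showed no common direction. Of 30 tested, 6 rose and 6 fell, shares of 20.0% in each direction that lie near the background, and the median was -0.12 (1 rose and 15 fell with equal totals). Mki67, the proliferation marker, was at 2845, 2800.3 and 2829 with GFP and 4236, 3973 and 4217 with IRX3_WT, a rise of 0.55 (SE 0.04, limma adjusted p = 4.84e-14). Nusap1 (0.37) and Mad2l1 (0.28), of the spindle and its checkpoint, rose only on the deposited scale. Kif23 (-0.54), Ttk (-0.46) and Bub1b (-0.43) fell, but Ttk lost its call without GFP replicate 1 or 3 or IRX3_WT replicate 1 or 3. Without GFP replicate 3, and with DESeq2 on recovered reads, 3 mitosis genes fell in place of 6. Cdk1 (-0.17), Ccna2 (-0.05) and Top2a (0.09) did not pass, although Cdk1 and Ccna2 were lower with equal totals. Whether the mitosis list differs from the replication list was not tested.

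**Figure D4:**
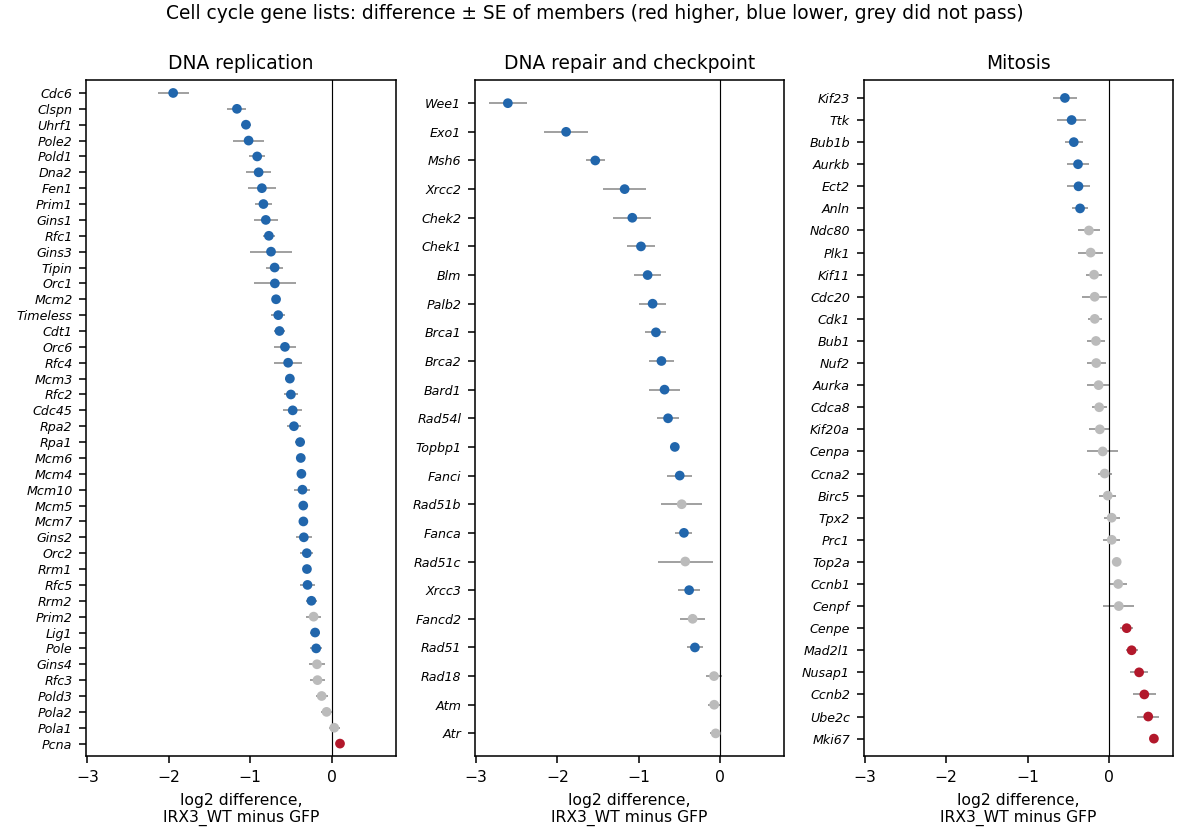
Log2 difference with its standard error for tested members of the DNA replication (42 tested), DNA repair and checkpoint (24 tested, not all drawn) and Mitosis (30 tested) lists, in which red rose, blue fell and grey did not pass. The first 2 lists lie almost wholly to the left of 0, with Wee1 (-2.61) and Cdc6 (-1.95) at the far end, while the third spreads from Kif23 (-0.54) to Mki67 (0.55).

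The regulators of cell cycle entry moved apart. Of 28 E2F factors, cyclins and CDK inhibitors 12 fell and 4 rose (16 and 3 with equal totals). E2f2, which activates replication genes, was at 101, 144 and 109.5 with GFP and 9.85, 15.6 and 27.3 with IRX3_WT, whereas E2f1 fell by only 0.27 on the log2 scale and E2f3 (0.09) did not pass. Of the D-type cyclins 1 fell, 1 rose and Ccnd3 (-0.04) did not pass on the deposited scale but was lower with equal totals. Ccnd1 was at 2849, 2758 and 2841 and 958, 942 and 938, and Ccnd2 at 871, 848 and 866 and 1544, 1542 and 1378. In exon length 23.4% of Ccnd1 overlaps another annotated gene, so some counted reads could stem from that neighbour. Cdkn1a, the CDK inhibitor p21, rose from 11243, 11801 and 11422 to 18982, 19232 and 16999, and Ccne2 (-1.14) fell. Of 12 tested genes of the Myc network 4 rose and 4 fell (2 and 6 with equal totals). The falls were Tfap4, Myc (-0.94), Mxd4 (-0.71) and Mnt (-0.58), and the rises Mycl (0.71), Mxd1 (0.57), Mga (0.23) and Max (0.20), of which Mga and Max did not pass with equal totals.

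Short sequences that E2F factors are known to bind were looked for in the promoters, because replication genes, many of them known E2F targets, held the highest share of falls. RefSeq windows (GRCm38.p6) of 250 bases before to 50 bases after a gene's start were matched by symbol to 9493 tested genes. On both strands, TTTCCCGC, TTTGGCGC, TTTCGCGC or TTTGCCGC occurred in 4.79% of these genes and in 2.6% of all 27025 genes with a window. The share was 47.1% in DNA replication (16 of 34 genes with a window), 33.3% in DNA repair and checkpoint (6 of 18) and 3.85% in Mitosis (1 of 26). Within DNA replication 13 of 16 genes with a match and 16 of 18 without one fell, with medians of -0.58 and -0.47. Among genes called lower 5.99% had a match, among genes called higher 3.16% and among those not called 4.99%. The 10 matches in the genes of the 4 cell cycle lists and the 20 largest falls with the greatest falls are shown as stretches of 30 bases, 5′ to 3′ on the gene's strand, with the matched letters in capitals.
Cdca7: tgcgtcccggcGCGGGAAAgccggtggccc
E2f2: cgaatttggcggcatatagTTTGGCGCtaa
Dtl: cgtgacgtcagTTTGGCGCggagtttggcg
Cdc6: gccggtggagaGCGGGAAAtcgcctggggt
Msh6: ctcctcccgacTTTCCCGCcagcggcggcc
Clspn: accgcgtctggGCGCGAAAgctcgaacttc
Chek2: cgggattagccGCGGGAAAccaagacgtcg
Uhrf1: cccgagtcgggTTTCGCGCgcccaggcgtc
Pole2: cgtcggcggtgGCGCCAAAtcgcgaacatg
Pold1: cacggcggcgtatcttgtgGCGGGAAAagc
In GRCm38.p6 they lie at Cdca7 chr2:72476137-72476166 (+), E2f2 chr4:136172294-136172323 (+), Dtl chr1:191575534-191575563 (-), Cdc6 chr11:98908002-98908031 (+), Msh6 chr17:87975054-87975083 (+), Clspn chr4:126556990-126557019 (+), Chek2 chr5:110839820-110839849 (+), Uhrf1 chr17:56304117-56304146 (+), Pole2 chr12:69228162-69228191 (-) and Pold1 chr7:44548766-44548795 (-), with the strand in brackets. These matches describe the letters in the window and do not show binding.

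Receptors for lipids and metabolites moved in both directions, with 8 of 20 tested lower and 6 higher (8 and 5 with equal totals). The background was 18.6% lower and 21.0% higher (41.3% and 10.4% with equal totals). The share of falls lay above it only on the deposited scale, and the share of rises on both scales. The falls ran from -0.38 for the prostaglandin receptor Ptger4 to -4.40 for Gpr183 on the log2 scale, and the rises from 0.25 for Hcar2 to 0.79 for Gpr132. Besides the 4 named above, Lpar6 went from 352, 306 and 298 to 126, 110.1 and 115. Its relative Lpar1, which also binds lysophosphatidic acid, rose from 717, 780.0 and 714 to 1187, 1219 and 1192. Ptafr, the receptor for platelet-activating factor, rose by 0.52. Chemoattractant receptors also moved in both directions, with 5 of 15 higher and 6 lower (5 and 10 with equal totals). Cxcr4, which retains cells in bone marrow, was at 163, 189.7 and 173 with GFP and 30.5, 33.2 and 50.1 with IRX3_WT, and Ccr2, the receptor for monocyte recruitment, at 215, 262 and 219.9 and 90.6, 114 and 102. The formyl peptide receptor Fpr1 was at 6132, 6321 and 6318 and 11299, 10458 and 10446, and Ccrl2 at 4837, 5164 and 4892 and 10286, 9585 and 9317. Ccr7 (1.35) passed as well, but on 1.86 to 21.7 counts with overlapping groups, and not without GFP replicate 1 or IRX3_WT replicate 1 or 3.

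Purine receptors rose and fell. The adenosine receptor Adora2a, which dampens inflammatory signalling, was at 929.9, 945 and 1035 with GFP and 2298, 2494 and 2346 with IRX3_WT, a rise of 1.29 (SE 0.05, limma adjusted p = 1.68e-21), and its relative Adora2b rose by 0.85, while Adora3 (-0.52) did not pass. The nucleotide receptors P2ry6 (-0.98), P2ry12 (-0.92) and P2rx7 (-0.75) fell, as did the ATP-cleaving Entpd1 (-0.45) and the adenosine-cleaving Ada (-0.40). Among the other nucleotide receptors P2ry2 (0.60) and P2ry14 (0.41) rose, P2ry14 only on the deposited scale, and P2rx4 (-0.01), P2ry1 (-0.44) and P2ry13 (-0.14) did not pass there. In all 4 of 15 rose and 5 fell (3 and 7 with equal totals).

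Uptake receptors were also divided. Of 22 scavenger and efferocytosis genes 9 rose and 8 fell (4 and 12 with equal totals). Marco was at 3566, 3921 and 3609 with GFP and 6917, 6659 and 7301 with IRX3_WT, and Olr1, which takes up oxidized lipoprotein, rose by 0.92. Mertk, which clears dying cells, rose from 1342, 1253 and 1313 to 2215, 1943 and 2012, whereas Gas6, its bridging ligand, fell from 1277, 1361 and 1460.4 to 824, 999.98 and 732. Cd163 (-1.27), Mrc1 (-0.54) and Stab1 (-0.47), receptors typical of resident macrophages, fell, whereas Timd4, another such receptor, rose by 0.22 and did not pass with equal totals. Csf1r (0.01), Cd68 (-0.06) and Lyz2 (-0.01) did not pass on the deposited scale and were lower by -0.16, -0.24 and -0.18 with equal totals. Among Fc and lectin receptors 12 of 27 rose and 8 fell (7 and 14). The inhibitory Fcgr2b rose from 1502, 1394 and 1468 to 2755, 2592 and 2961, and Clec4e, which senses mycobacterial glycolipid, from 38307, 39191 and 37865 to 70725, 66002 and 67051. The paired receptors Cd300lb (-1.26), Cd300a (-0.77) and Cd300lf (-0.74) fell together.

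Of 21 tested TNF receptor and Traf genes 10 rose and 7 fell (7 and 8 with equal totals). Tnfrsf1b, the second receptor for tumour necrosis factor, went from 27252, 26937 and 27943 to 49426, 49957 and 49809 normalized counts, and Cd40 (1.02), Tnfrsf8 (1.02) and Traf1 (0.69) rose. The decoy receptors Tnfrsf22 (-0.97) and Tnfrsf23 (-0.68) and the neighbouring Tnfrsf26 (-0.77), with Tnfrsf21 (-0.94), fell, although Tnfrsf22 did not pass without GFP replicate 3 or IRX3_WT replicate 2. Among 26 apoptosis and necroptosis genes 15 rose and 5 fell (11 and 9). The survival genes Bcl2a1a (0.95), Bcl2a1d (0.77), Cflar (0.62) and Birc3 (0.61) rose, although reads of the near-identical Bcl2a1 copies may be split between them. Bcl2 went the other way, from 176, 157 and 170.1 to 77.8, 97.6 and 89.9, with Bcl2l1 (-0.41) and the killer gene Bmf (-1.54).

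Of 20 RGS proteins and enzymes that make or cleave cyclic nucleotides 7 fell, 2 rose and 11 did not pass (14 fell and 2 rose with equal totals). Rgs2, which switches off Gq, was at 1159, 1146 and 1235 with GFP and 466, 502 and 365 with IRX3_WT. The cAMP phosphodiesterase Pde4b rose from 3741, 3800.4 and 3878 to 7243, 6649 and 6726, while its relative Pde4a fell by 0.43 on the log2 scale. Of 16 genes of the MAP kinase phosphatase and Sprouty families 8 rose and 3 fell (7 and 4). Dusp1, which inactivates p38 and JNK, rose by 0.58 and Dusp16 by 0.46, and Dusp3 (-0.59) fell. Spry4 rose by 1.71 from 6.496, 6.45 and 11.6 to 20.7, 32.2 and 33.0 counts.

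Transcription factors of macrophages showed 14 rises and 11 falls among 36 (12 and 19 with equal totals, and 6 falls without IRX3_WT replicate 2). Ahr, the aryl hydrocarbon receptor, rose from 789, 670.4 and 771 to 1436, 1411 and 1464, and Nfil3 (1.01), Batf (0.92), Tfec (0.82) and Mitf (0.58) rose. Rxra, the common partner of nuclear receptors, fell from 979, 999 and 1040.1 to 512, 556 and 538, and Pparg (-0.69), Klf10 (-1.54) and Tfeb (-0.65) fell. Spi1, the lineage factor PU.1, rose by 0.22 and did not pass with equal totals. Irf8 (-0.02) and Irf5 (0.00) did not pass on the deposited scale and were lower with equal totals.

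Metabolic lists differed in direction. Antioxidant genes controlled by NRF2 rose in 16 of 21 cases with 0 falls and a median of 0.31 (10 rose and 4 fell with equal totals). Txnrd1, which reduces thioredoxin, was at 14425, 14304 and 14764 with GFP and 22898, 23174 and 22194 with IRX3_WT. Srxn1 was at 4345, 4396 and 4442 and 7388, 7351 and 7102, and the cystine importer Slc7a11 at 10288, 10000.0 and 10211 and 22850.0, 19482 and 22386. The groups lay apart in all 3, which were named from called genes, and in 48.4% of all genes tested. Gclc (0.05), Gpx1 (-0.03) and Gpx4 (0.01) did not pass, and were lower with equal totals.

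Iron and haem genes rose in 13 of 21 cases and fell in 3 (8 and 6 with equal totals). The zinc and iron importer Slc39a14 went from 3421, 3419 and 3396 to 6650.3, 6550.2 and 6633, the ferroxidase Cp from 875, 820.5 and 825 to 1796, 1719.6 and 1749 and the haem-degrading Hmox1 from 4969, 4933 and 4839.7 to 8682, 7734 and 7953. Fth1, the ferritin heavy chain, rose by 0.39 from a high level of 208290.0 ± 2617 counts (SD, n = 3), with the caution that Fth1 has processed copies that may share its reads. Steap3 (-0.63), an iron reductase, fell. Of 21 genes of NAD and kynurenine metabolism 10 rose and 3 fell (8 and 6), with Nampt, the rate-limiting enzyme of NAD salvage, up by 0.52 and Kynu by 1.19, and Parp1 (-0.54) and Nadk2 (-0.65) down.

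Lipid synthesis and oxidation both held more falls than rises. Of 17 genes of fatty acid synthesis and desaturation 8 fell and 2 rose (11 and 0 with equal totals). The elongase Elovl6 was at 84.5, 81.0 and 65.9 with GFP and 29.5, 12.5 and 22.8 with IRX3_WT, the desaturase Scd2 at 308, 284 and 309 and 77.8, 113 and 108, and Fasn, the fatty acid synthase, at 1725, 1699.9 and 1644 and 1059, 1172 and 1122. Of 21 genes of fatty acid oxidation 11 fell and 2 rose (16 and 0), with Hadh (-0.48) and Cpt1a (-0.31), the entry step into mitochondria, among the falls. With DESeq2 on recovered reads 7 fell and 1 rose, and 1 rose without GFP replicate 1 or 3 or IRX3_WT replicate 1 or 2. Acsl1, which activates long-chain fatty acids, went against this with 7462, 7389.8 and 7515 and 17868, 17193 and 17759 counts, a rise of 1.24 (SE 0.03, limma adjusted p = 2.11e-27). Among 23 acyl-CoA synthetase and lipid droplet genes 5 rose and 9 fell (4 and 9), and Lpin1 (-2.06) fell from 12.99, 17.5 and 29.4 to 1.97, 7.27 and 3.41 counts. Lpin1 lay under the floor of 3 reads in IRX3_WT replicate 1 and at it in replicate 3, so the size of its fall is less certain than its direction. Of 25 sphingolipid enzymes 8 rose and 6 fell (3 and 14). The ceramide synthase Cers6 went from 8273, 8435 and 8104 to 18227, 16714 and 16982, while Cerk, the ceramide kinase, fell from 1326, 1242 and 1382 to 545, 523 and 570.1.

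Nucleotide and one-carbon synthesis fell in 14 of 31 cases and rose in 6 (22 and 2 with equal totals). The purine pathway genes Ppat, which holds its first step, and Pfas went from 401 ± 10.9 to 241 ± 20.9 and from 459 ± 20.3 to 274 ± 30.6 normalized counts (SD, n = 3), and the pyrimidine genes Umps (-0.58) and Cad (-0.33) fell. Upp1, which salvages uridine, rose by 1.16. In the TCA cycle 8 of 27 genes fell and 0 rose (21 and 0), including Idh2 (-0.38). The falls numbered 3 without GFP replicate 2, 4 without GFP replicate 3 and 5 without IRX3_WT replicate 3, and 1 gene rose without IRX3_WT replicate 2 or 3. Acod1, which draws cis-aconitate out of that cycle to make itaconate, was at 102570.0, 102830.0 and 101880.0 and 165500.0, 160470.0 and 153690.0. The arginine importer Slc7a2 rose by 1.02 and Gch1, which starts the synthesis of the nitric oxide synthase cofactor, by 0.51, while Srm, for spermidine, fell by 0.63 on the log2 scale.

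Lysosomal genes held 10 falls and 1 rise among 30 (27 and 0 with equal totals), most of them small, with Npc1 (-0.29), Lipa (-0.32) and Grn (-0.21). Sgsh fell furthest (-1.40), and part of its exon length overlaps another gene. Lamp2 was the rise (0.17), and it was -0.01 with equal totals. Ribosome biogenesis showed 12 falls and 2 rises among 30 (27 and 0), with Polr1b, a subunit of RNA polymerase I, at 317, 339 and 335 and 208, 209 and 211. The autophagy receptor genes Sqstm1 (25210.0, 25679 and 26294 to 41910.0, 44058 and 39395) and Optn (0.51) rose. Over the 26 autophagy genes 6 rose and 5 fell (4 and 13), shares of 23.1% and 19.2% that lie near the background. In the integrated stress response 8 of 23 genes rose and 0 fell (4 and 6 with equal totals, and 2 falls without IRX3_WT replicate 2). Ppp1r15a, which restarts translation, rose by 0.68, and Atf4 (0.05) and Ddit3 (0.08) did not pass, although Atf4 was lower with equal totals.

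Genes of extracellular proteolysis and clotting rose in 17 of 28 cases and fell in 4, with a median of 0.44 (14 and 7 with equal totals). The plasminogen system came apart. Plau, the urokinase protease, fell from 2407, 2297 and 2508 to 449, 502 and 429, while Plaur, its receptor, rose from 4778, 4786 and 4735 to 6469, 6564 and 6877. Clotting genes went likewise in 2 directions. Coagulation factor F10 rose from 394, 393 and 416 to 928, 889 and 964 and tissue factor F3 from 52.9, 63.5 and 64.1 to 153, 113 and 109, whereas Thbd, the anticoagulant thrombomodulin, fell from 123, 119 and 111 to 35.4, 38.4 and 34.1. Procr, the receptor of protein C in the same anticoagulant pathway, rose by 0.92. The matrix proteases Mmp14 (0.72), Mmp13 (0.73) and Mmp9 (0.78) rose.

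Growth factors and matrix proteins rose in 16 of 25 cases and fell in 4, with a median of 0.39 (14 and 5 with equal totals). Besides Inhba, the endothelin Edn1 (1143, 1250.5 and 1225 to 2453, 2437 and 2178), Csf1 (0.77), Vegfa (0.62), Wnt6 (1.06) and fibronectin, Fn1 (1.02), rose. Pdgfa (-0.86) and Tgfbi (-0.34) fell, and 26.1% of the exon length of Pdgfa overlaps another gene. Antigen presentation held 17 rises and 2 falls among 25 (10 and 9). The checkpoint ligand Cd274 went from 5135, 5150.3 and 4918 to 9783, 9476 and 9362, the costimulatory Cd80 rose by 0.79, and the class I genes Tap1 (0.52) and Nlrc5 (0.53) rose. The class II genes H2-Eb1 (-0.36) and H2-Aa (-0.15) fell.

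The cytoskeleton list had 15 rises and 6 falls among 34 (12 and 16 with equal totals), with Marcksl1 up by 0.61, against Coro1c (-0.73). The atypical GTPases Rnd1 (1.36) and Rhou (1.11) rose and Rhov, a close relative of Rhou, fell from 119, 148 and 94.4 to 35.4, 35.3 and 37.5. Of 15 integrins 8 rose and 3 fell (6 and 3): Itgal (0.46), Itga5 (0.37) and Itgav (0.37) rose, and Itga6 (-0.81), a laminin receptor, fell. Semaphorins, plexins and neuropilins showed 7 rises and 7 falls among 16 (4 and 9), and here too relatives differed: Nrp2 rose by 0.58 and Nrp1 (-0.31) fell.

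Regulators of mRNA decay rose in 12 of 26 cases and fell in 4 (7 and 10 with equal totals), and the family of zinc-finger proteins that bind AU-rich elements divided. Zfp36, which destabilizes inflammatory transcripts, rose from 4399.9, 4358 and 4327 to 6936, 7200.2 and 6745. Zfp36l2 fell from 1621, 1692 and 1588 to 373, 445 and 461, and Zfp36l1 (-1.06), with 55.9% of its exon length in another gene, fell. The endonuclease Zc3h12a rose by 0.75 and its relative Zc3h12d (-0.50) fell.

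**Figure D5:**
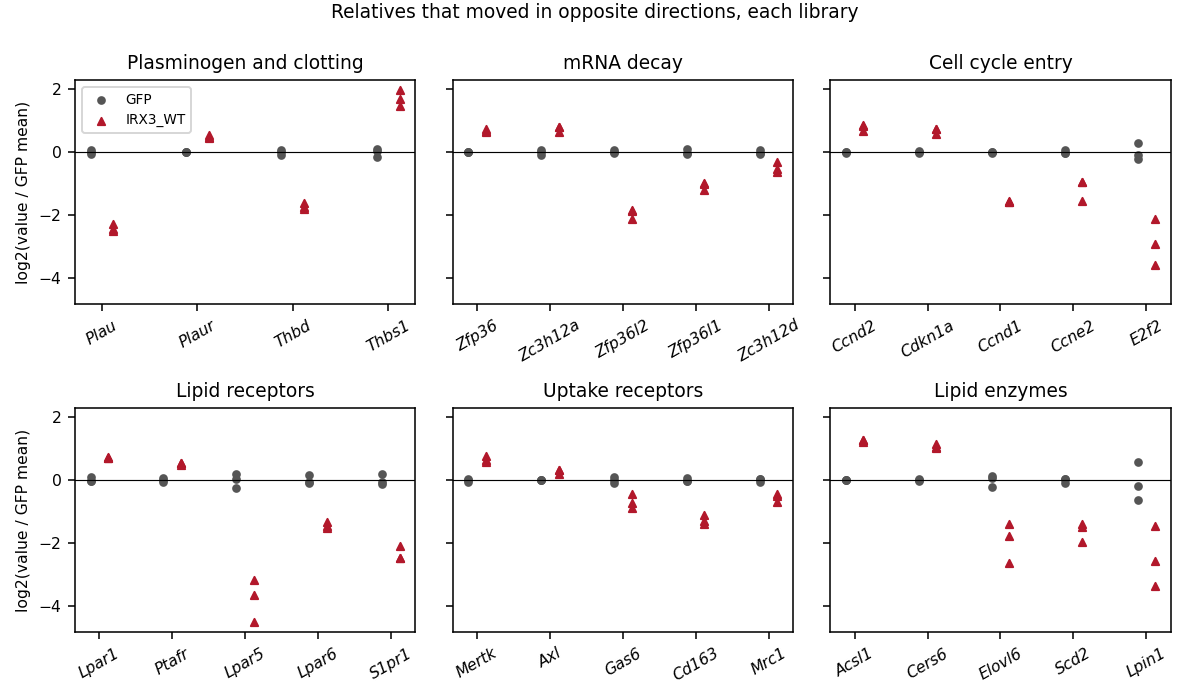
Values of selected relatives in each library as log2 of the ratio to the GFP mean (vertical axis), with GFP libraries as grey circles and IRX3_WT libraries as red triangles. The genes were chosen after their values were seen, and in each panel members of 1 system lie on opposite sides of 0, as with Plau against Plaur or Zfp36 against Zfp36l2.

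Host transcripts of microRNAs were among the long non-coding RNAs measured. Mir155hg, the precursor transcript of miR-155, a microRNA induced by LPS, was at 506, 574 and 502 with GFP and 1208, 1207 and 1106 with IRX3_WT, a rise of 1.15 (SE 0.07, limma adjusted p = 1.65e-17). Mir22hg, the host of miR-22, was at 1579.6, 1472 and 1520.0 and 2298, 2264 and 2361, a rise of 0.60 (SE 0.05). The hosts of the miR-17 cluster, Mir17hg (-0.16), and of miR-142, Mir142hg (0.01), did not pass. The libraries measured the hosts and not the mature microRNAs, whose main products are given here from RefSeq (GRCm38.p6) with the seed, bases 2 to 8, in capitals, since it fixes which transcripts each can pair with.
mmu-miR-155-5p: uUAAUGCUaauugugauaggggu
mmu-miR-22-3p: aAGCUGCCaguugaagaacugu
The first lies at chr16:84714143-84714165 on the plus strand and the second at chr11:75463772-75463793 on the plus strand, and the seeds differ. Of 20 long non-coding RNAs in the list 6 rose and 4 fell (6 and 7 with equal totals, and 2 falls without GFP replicate 1 or 3 or IRX3_WT replicate 1), among the rises AW112010 (1.32) and Malat1 (0.87).

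The libraries with IRX3_S361A and IRX3_S389A share the GFP controls, so their means stand beside the others as a description only. Gpr183 averaged 184 ± 27.1 with GFP, 9.35 ± 7.09 with IRX3_WT, 8.02 ± 2.60 with IRX3_S361A and 15.7 ± 4.81 with IRX3_S389A (SD, n = 3 each). Plau averaged 2404 ± 106, 459.8 ± 37.5, 586 ± 53.9 and 674 ± 29.1 in the same order, and Ccnd1 2816 ± 50.4, 946 ± 10.7, 1103 ± 77.4 and 1020.3 ± 19.9. Lif averaged 175 ± 19.5, 576 ± 42.7, 191 ± 28.0 and 209 ± 14.1, and Kcna2 15.3 ± 4.10, 48.8 ± 11.8, 17.0 ± 5.93 and 18.7 ± 5.81. These genes were chosen after their values were seen. In Gpr183, Plau and Ccnd1 the means of the substituted forms lay nearer to IRX3_WT than to GFP, and in Lif and Kcna2 nearer to GFP.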

How the data were processed

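RNA-seq of 12 libraries (4 groups of 3) was used, of which the 6 with GFP or IRX3_WT make the comparison. Trimmomatic, HISAT2 2.1.0, StringTie 1.3.5 and the mouse build mm10 are named per the submitters' processing notes. For the read counter, its strand setting and its annotation, nothing was stated: these were not given in the sources used here. The deposited values are a signal per gene: counts that the authors divided by 1 factor per library. In all 12 libraries 100% of the values were whole multiples of the smallest value above 0 (tolerance 1e-06). That value was taken as 1 read in 9 libraries, these 6 included, where it differed from 1 by more than 1%. This gave recovered reads, and edgeR called 5248 genes on them.

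Genes with at least 10 in at least 3 libraries were tested with limma 3.58.1 (R 4.3.3, trend and robust) on log2(value + 1), so that fold changes of low genes are understated. The fit had 1 mean per group over all 12 libraries and 8 residual degrees of freedom, with Benjamini-Hochberg adjustment over 13369 genes and a threshold of 0.05. Alternatives were edgeR 4.0.16 and DESeq2 1.42.0 on recovered reads, scaling to equal totals, other filters and pseudocounts, a replicate block, only the 6 libraries, and leaving out each library. In data simulated for this comparison on 13369 genes, the limma fit recovered 92% of 50 genes raised 2-fold, 82% of 50 lowered 2-fold, 80% raised 1.5-fold and 68% lowered 1.5-fold. Of its calls there, 4.73% were on unchanged genes. The simulation changed only these few genes, gave every gene the same spread and used the exact library factors. Its rates therefore do not measure the errors among the calls made here, where many more genes differed and the scaling is uncertain. Positions and exon overlap come from GENCODE M21, which matched 98.1% of identifiers with their version and 99.5% without it. Lists are named by function.

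The comparison, its members and the gene lists were chosen with earlier results of these data known. Named genes were the 20 largest rises and 20 largest falls with at least 1 CPM and groups that do not overlap, with leading members of the lists, 299 in all, some of which are not reported here. Another 74 were named after their values were seen, among them most genes that did not pass.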

Additional observations from a re-analysis of the deposited data

How the results depend on the processing

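Scaling to equal totals moved the counts most: 1395 genes were higher and 5519 lower, and Pcna (-0.0731), Lamp2 (-0.0101), B2m (-0.0861), Csf1r (-0.16), Atf4 (-0.13), Gclc (-0.13), Gpx4 (-0.17) and Irf5 (-0.18) changed sign. So did 4 named genes that passed on neither scale, Top2a (-0.08), E2f3 (-0.09), Ddit3 (-0.10) and Mir142hg (-0.16). It moved 51 of 102 list counts by over 1.5 times. The count of 5288 genes was 5248 with edgeR and 4442 with DESeq2 on recovered reads, 4827 with no filter and 4996 with a minimum of 50. It was 5275 and 5307 with pseudocounts of 0.5 and 10, and 5286 in the 6 libraries alone. Leaving out 1 library gave 4572 to 5364 genes, 2479 to 2851 higher and 2034 to 2513 lower. Of the 373 named genes 15 lost a call in at least 1 such fit and 8 in another alternative besides equal totals, while P2ry1 passed without IRX3_WT replicate 2 (-0.59). With replicate numbers as a block 5241 genes passed, and the block changed no call of a named gene. Same-numbered libraries did not deviate together (correlations of 0.00634, -0.0279 and -0.00219), so no pairing by number showed in these values. Whether such libraries share an animal, culture or day is not given. Genes under 10 counts in a group are limited by depth, and no outlier test was made in groups of 3. The causes of these changes were not tested.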

Other observations

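Gene families sorted by the stem of their symbol, chosen after their values were seen, differed in direction. Over all genes tested 21.0% were higher and 18.6% lower (10.4% and 41.3% with equal totals). Of 36 tested genes with the stem Ube, ubiquitin-conjugating enzymes for the most part, 19 were higher and 1 lower, which became 2 and 11 with equal totals. Their median level was 69.0 CPM. In the quartiles of level with medians of 32.6 and 127 CPM, 19.3% and 47.8% of all genes tested were higher. The part of level in the counts of these families was not tested. Of 64 Rnf genes (RING-finger proteins) 22 were higher and 7 lower (10 and 21 with equal totals). Rnf144a rose by 1.34 while its relative Rnf144b fell (-2.74), although Rnf144a did not pass without GFP replicate 1 (0.92). Of 50 Wdr genes 5 were higher and 18 lower (1 and 37), with Wdr76 (-1.32) among the falls, and of 306 Zfp genes 25 were higher and 58 lower (12 and 146). The 48 Mrpl genes, of the mitochondrial ribosome, had 1 rise and 8 falls (0 and 35), and the 49 Rpl genes 0 and 3 (0 and 38).

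Protein-coding genes passed in 43.6% of 11436 cases and processed pseudogenes in 7.81% of 730, and the median level of the first was 23.6 CPM against 1.54 CPM in the second. The part of that level in the difference was not tested.

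Promoter windows were also searched for ACANNTGT, a palindrome bound by Iroquois factors, on both strands. It occurred in 4.81% of genes called higher, 5.39% of those called lower and 4.33% of those not called, and in 4.66% of all tested genes with a window. The core of the interferon-stimulated response element, GAAANNGAA, occurred in 12.6% of genes called higher, 7.6% of those called lower and 8.17% of those not called. These matches describe the letters in the window only.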
